A study of Mus musculus with 8 samples.

Results

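The 32 genes of cholesterol synthesis and sterol homeostasis were followed through the livers of mice on 4 diets. They were chosen by name, as non-control probes of the array whose gene name equals a listed member, and they make up 32 of the 17267 genes tested. The set holds 19 enzymes of cholesterol synthesis and 13 genes of sterol sensing, transport, esterification and export. The arrays carried 63 probes for these genes, and each gene was read on its brightest probe, which was well above background on all 8 arrays. The gene listed as Sc4mol is named Msmo1 on the array and was matched through its RefSeq synonym.

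Liver makes cholesterol from acetyl-CoA through mevalonate, squalene and lanosterol, and turns part of it into bile acids, cholesteryl esters and lipoproteins. When sterols in the endoplasmic reticulum run low, the escort protein Scap carries the precursor of the transcription factor encoded by Srebf2 to the Golgi, where it is cut and released to switch on the synthesis enzymes. When sterols are plentiful, the Insig proteins hold Scap back, while oxysterols act through the nuclear receptor LXR on exporters such as Abca1, Abcg5 and Abcg8.

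The samples were livers of male wild-type C57Bl/6J mice, 14 weeks old and fasted for 4 h, with 2 arrays in each of 4 groups. In BD_HF the dams had the Standard Breeder Diet and the young were weaned onto the High Fat Diet, which holds 60% of its energy as fat. In LF_HF the dams received, from day 10.5 of gestation of the embryos, a low fat diet with enough vitamin A and 12% of its energy as fat, and the young were weaned onto the same High Fat Diet. In LF_LF the low fat, vitamin A sufficient diet was given to the dams and again after weaning. In VAD_VAD a low fat diet of the same fat content without enough vitamin A was given at both stages. The study set VAD_VAD against LF_LF for vitamin A, LF_HF against LF_LF for the diet after weaning, and BD_HF against LF_HF for the diet of the dam, and BD_HF minus LF_LF, in which both diets differ, was added here. The labels number the samples of a group 1 and 2, with no word on whether these were separate animals. The p-values then measure only the spread between these samples, and the number of arrays limits their precision.

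Levels below are log2 signal relative to the 75th percentile of the array, and a difference between groups is a log2 difference with its standard error (SE). Sample 1 of LF_HF stood apart from the other arrays. The share of probes well above background was 82.2% on it and 56.5% to 64.2% on each of the others, and its correlation with sample 2 of LF_HF was 0.919, against 0.977 to 0.992 within the other groups. Medians and calls in LF_HF minus LF_LF are therefore also given without it, and so are the differences printed for genes with values by array. It was also the lowest array for 8 of 10 hepatocyte markers, whose summed level was 2732 times the 75th percentile on it and 6079 on sample 2 of LF_HF. Hepatocyte markers were in place for the labelled tissue, with 9 or 10 of 10 well above background on each array. The arrays of LF_LF were the highest in markers of stellate cells, of macrophages and of cholangiocytes, the cells of bile ducts. The summed level of 9 stellate cell markers was 50.4 and 51.1 times the 75th percentile in LF_LF and 14.6 to 22.4 in the other groups, and that of 10 macrophage markers was 168 to 185 in LF_LF and 62.0 to 122 in the others. The summed level of the 5 measured cholangiocyte markers was 14.4 to 20.9 in LF_LF and 5.06 to 8.37 in the others. Every comparison with LF_LF holds these differences. Of 8 neutrophil markers 6 were measured, with summed levels of 19.1 and 25.8 in VAD_VAD and 1.79 to 6.26 in the other groups. S100a8, a calcium-binding protein of neutrophils, rose in VAD_VAD minus LF_LF by 2.52 (limma adjusted p = 0.0499). The summed level of 8 endothelial markers was 13.2 and 24.4 in LF_HF, 29.9 and 31.5 in LF_LF and 41.6 to 56.2 in the others, and 0 of them were called in limma, with 1 to 5 unadjusted p under 0.05 in a comparison. The part of these markers in the results was not tested.

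The sequences just before the start sites are shown because the synthesis enzymes are known to share promoter elements for the Srebf2 product and its partners. RefSeq promoter sequences (GRCm38.p6) were found for 26 of the 32 genes, 16 of them enzymes, and the 250 bases before the start were searched on both strands. The sterol regulatory element of the Hmgcs1 type, TCACNCCAC, was found in 1 of the 16 enzymes, Hmgcs1, and in 1.22% of 27025 genes. The letters CCAAT, bound by the partner factor NF-Y, were found in 15 of the 16 enzymes and 7 of the 10 other members, against 37.5% of all genes. The GC box GGGCGG, bound by Sp1, was found in 14 of the 16 enzymes and 7 of the 10 others, against 35.4% of all genes. The LXR element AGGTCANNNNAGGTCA was found in 0 of the 26 members and in 4 genes of the whole table. A gene with several listed starts was counted if the bases before any of them matched. The CCAAT matches of Pmvk, Dhcr7, Insig2 and Abcg8 lay before only 1 of the starts of each gene. These are matches of letters and show no binding. Below, the 150 bases before the start are given 5′ to 3′ on the strand of the gene, with matches to TCACNCCAC and CCAAT in capitals. A CCAAT on the other strand appears as its reverse complement. Hmgcs1, the enzyme that makes the substrate of mevalonate synthesis, lies at chr13:119690201-119690350 (plus strand) and holds its match to TCACNCCAC at -137 to -129, counted from -1 at the base before the start, apart from its CCAAT matches. Mvk, mevalonate kinase, at chr5:114444119-114444268 (plus), had 5 CCAAT matches in 250 bases. Sc4mol, the sterol C4-methyl oxidase, at chr8:64733579-64733728 (minus), and Hsd17b7, the 3-ketosteroid reductase of the same demethylation, at chr1:169969206-169969355 (minus), had 3 each. Acat2, the acetoacetyl-CoA thiolase, at chr17:12960726-12960875 (minus), was the enzyme without one.
Hmgcs1: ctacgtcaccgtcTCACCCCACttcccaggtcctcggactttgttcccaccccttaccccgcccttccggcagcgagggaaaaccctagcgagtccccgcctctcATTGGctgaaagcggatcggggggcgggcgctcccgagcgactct
Mvk: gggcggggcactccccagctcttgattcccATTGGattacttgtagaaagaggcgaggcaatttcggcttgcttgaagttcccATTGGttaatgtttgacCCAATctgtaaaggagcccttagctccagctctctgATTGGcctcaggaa
Sc4mol: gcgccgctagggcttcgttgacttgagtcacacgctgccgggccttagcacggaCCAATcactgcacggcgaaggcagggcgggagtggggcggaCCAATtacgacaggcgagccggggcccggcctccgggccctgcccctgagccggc
Hsd17b7: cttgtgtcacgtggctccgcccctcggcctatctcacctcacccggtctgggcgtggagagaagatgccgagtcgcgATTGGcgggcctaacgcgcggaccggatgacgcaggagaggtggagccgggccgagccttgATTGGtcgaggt
Acat2: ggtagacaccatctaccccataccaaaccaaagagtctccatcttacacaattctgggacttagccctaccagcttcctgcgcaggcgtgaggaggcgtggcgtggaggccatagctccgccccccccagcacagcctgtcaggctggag

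Abcg5 and Abcg8, the partner subunits of the sterol exporter of bile canaliculi, lie head to head, and the 109 bases between the start of Abcg5 and the nearer start of Abcg8 at chr17:84683012-84683120 (plus strand, GRCm38.p6) serve both genes as upstream sequence. They are shown because the exporter pair is followed below, and they hold no CCAAT, TCACNCCAC or GGGCGG on either strand.
Abcg5-Abcg8: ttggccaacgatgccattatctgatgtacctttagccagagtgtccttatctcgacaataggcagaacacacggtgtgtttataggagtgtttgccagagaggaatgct

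Of the 19 synthesis enzymes 14 had their lowest value on 1 array, sample 2 of LF_LF, and 0 had it on sample 1 of LF_LF. The share of all genes lowest on that array was not counted. In limma 0 of the 19 enzymes passed the test in any diet comparison. Soat1, a cholesterol esterifying enzyme, was the 1 member of 32 that did: it fell in LF_HF relative to LF_LF. In VAD_VAD minus LF_LF, limma with Benjamini-Hochberg adjustment over all genes called 0 members, against 0.631% of all genes, and 7 members had an unadjusted p under 0.05, against 10.3% of all genes. In LF_HF minus LF_LF it called 1 member, lower, against 2.50% of all genes (1.88% lower), and 10 had an unadjusted p under 0.05, against 16.6%. In BD_HF minus LF_HF it called 0 members, against 0.00579% of all genes, with 1 unadjusted p under 0.05, against 5.39%. In BD_HF minus LF_LF it called 0 members, against 1.52%, with 4 unadjusted p under 0.05, against 12.8%. The moderated F test over the 4 groups called 0 members, against 0.851%, with 5 unadjusted p under 0.05, against 13.2%. The SE of a difference between diets ran from 0.30 to 0.76 over the enzymes and from 0.31 to 0.95 over the other members. What kept the enzymes from passing was not tested.

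**Figure D1:**
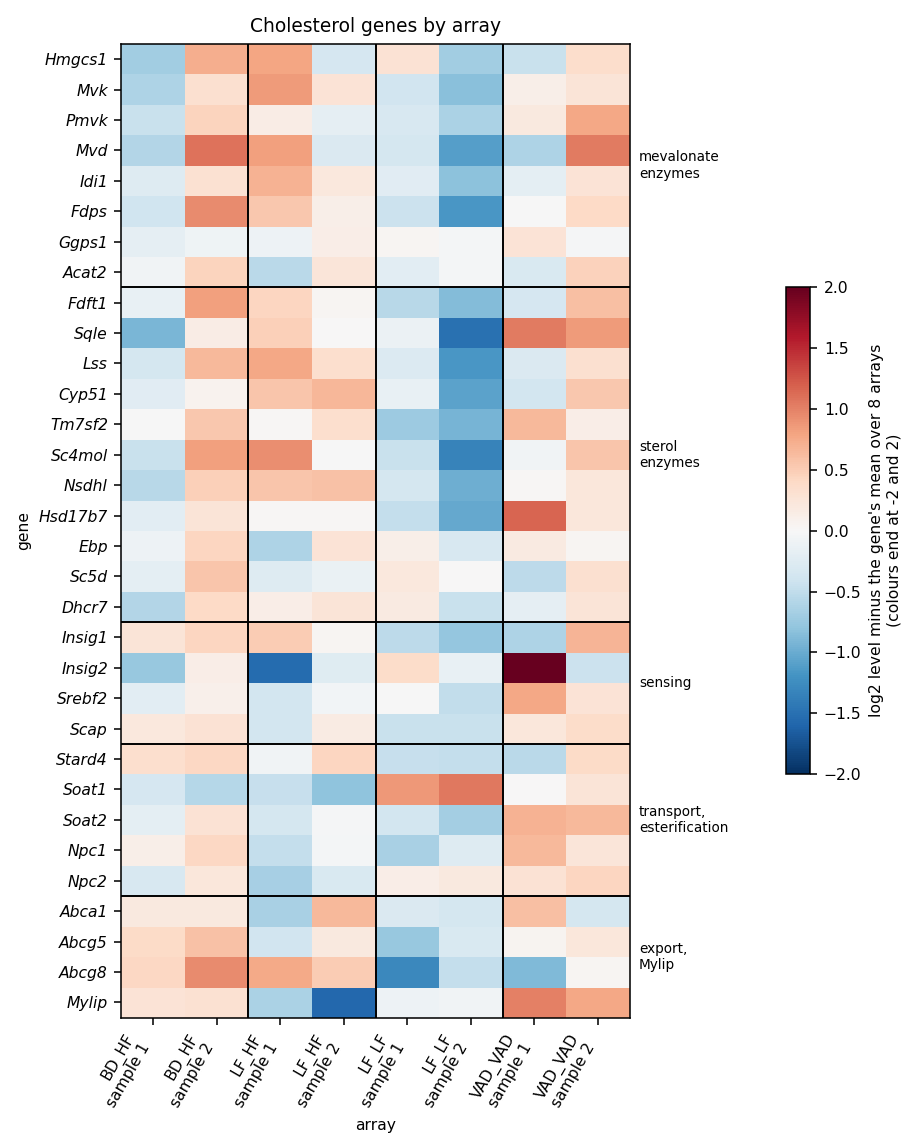
Heat map of the 32 genes (rows, grouped by role) on the 8 arrays (columns, grouped by diet); colour is the log2 level minus the gene's mean over the arrays, red above and blue below. The column of LF_LF sample 2 is blue for most enzymes (its enzyme median is -0.86), and the column of BD_HF sample 1 is paler blue beside a red BD_HF sample 2 (-0.35 and 0.45).

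The synthesis enzymes were described as a set by their median and by the number of genes whose arrays did not overlap between groups. In VAD_VAD minus LF_LF the median difference of the 19 enzymes was 0.79, and 18 of 19 were positive, against a median of 0.09 and 56.7% positive over all genes. In 10 enzymes both VAD_VAD arrays lay above both LF_LF arrays, as in 32.5% of all genes, and in 0 they lay below, as in 25.5%. In LF_HF minus LF_LF the median was 0.98 with 16 of 19 positive, against -0.02 and 48.7% over all genes, and 13 enzymes lay wholly above, as in 20.9% of all genes, and 1, Sc5d, wholly below, as in 21.3%. Without sample 1 of LF_HF the median was 0.74. In BD_HF minus LF_LF the median was 0.53 with 18 of 19 positive, against 0.11 and 58.5%, and 5 enzymes lay wholly above, as in 34.2% of all genes, and 1, Ggps1, below, as in 25.9%. In BD_HF minus LF_HF the median was -0.14 with 6 of 19 positive, against 0.17 and 61.8%, and 0 enzymes lay wholly above, where 17.4% of all genes did, and 2 below, Cyp51 and Nsdhl, where 9.54% did. The first 3 of these comparisons share the LF_LF arrays. Without sample 2 of LF_LF, the array with the lowest enzyme values, the medians of those 3 were 0.48, 0.62 and 0.31. Without sample 1 of LF_HF the median of BD_HF minus LF_HF was -0.07. With quantile scaling 14, 16, 16 and 3 of 19 enzymes were positive in VAD_VAD, LF_HF and BD_HF minus LF_LF and in BD_HF minus LF_HF, with medians of 0.69, 1.08, 0.42 and -0.33. The 10 hepatocyte markers had medians of 0.62 in VAD_VAD and 0.45 in BD_HF minus LF_LF. In LF_HF minus LF_LF their median was 0.08, from -0.50 on slide 1 and 0.66 on slide 2, and 0.63 without sample 1 of LF_HF, and their part in the enzyme values was not tested.

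The 8 enzymes from acetyl-CoA to the prenyl diphosphates had medians of 0.68 in VAD_VAD minus LF_LF and 0.72 in LF_HF minus LF_LF, the second 0.40 without sample 1 of LF_HF. Hmgcs1 varied more within groups than between them. Its levels were 5.45 and 4.47 in LF_LF, 5.95 and 4.82 in LF_HF, 4.47 and 5.89 in BD_HF, and 4.71 and 5.52 in VAD_VAD (samples 1 and 2). All groups overlapped, and the difference of LF_HF from LF_LF was 0.43 (SE 0.64, limma adjusted p = 0.791), and -0.14 without sample 1 of LF_HF. Of its other probes, 1 gave 0.86 in that comparison and the other 0.39. Mvk, which phosphorylates mevalonate, was at -0.45 and -0.90 in LF_LF, 0.79 and 0.20 in LF_HF, -0.68 and 0.26 in BD_HF, and 0.05 and 0.19 in VAD_VAD. Both LF_HF arrays and both VAD_VAD arrays lay above LF_LF, and the difference of LF_HF from LF_LF was 1.17 (SE 0.42, limma adjusted p = 0.230), with 1.36 on the other probe. The difference was 0.87 without sample 1 of LF_HF. Sample 1 of BD_HF lay between the LF_LF arrays, and sample 2 above both.

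The other enzymes of this stretch differed in how far they lay from LF_LF. Pmvk, Mvd, Idi1 and Fdps, which carry mevalonate on to isopentenyl, dimethylallyl and farnesyl diphosphate, differed by 0.46, 0.99, 0.98 and 1.13 in LF_HF minus LF_LF and by 0.96, 0.94, 0.57 and 1.00 in VAD_VAD minus LF_LF, and none passed the test. Mvd varied widely within groups, at 1.65 and 0.54 in LF_HF, 0.21 and 1.87 in VAD_VAD, and 0.48 and -0.28 in LF_LF. Its difference of LF_HF from LF_LF was 0.44 without sample 1 of LF_HF. The second probe of Fdps, well above background on 7 arrays, gave -0.81 in LF_HF minus LF_LF. Ggps1, which makes geranylgeranyl diphosphate for protein prenylation rather than sterol, spanned 0.45 over all 8 arrays, the narrowest range of the enzymes, and differed by 0.02 in LF_HF minus LF_LF (SE 0.30), although its 2 other probes gave -0.41 and 0.96. Acat2 differed by -0.02 (SE 0.42) in the same comparison.

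The 11 enzymes from squalene to cholesterol had medians of 0.79 in VAD_VAD minus LF_LF and 1.01 in LF_HF minus LF_LF, the second 0.80 without sample 1 of LF_HF. Sqle, squalene epoxidase and a control point of the pathway, had the largest enzyme difference of the first comparison. Its levels were 2.87 and 1.50 in LF_LF, 4.02 and 3.84 in VAD_VAD, 3.46 and 2.99 in LF_HF, and 2.07 and 3.13 in BD_HF. The VAD_VAD arrays were the highest of the 8 and lay close together, while the LF_LF arrays lay farther apart. The difference of VAD_VAD from LF_LF was 1.75 (SE 0.55, 3.35-fold, limma adjusted p = 0.296).

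Hsd17b7 was at 3.97 and 3.41 in LF_LF, 5.59 and 4.67 in VAD_VAD, 4.46 and 4.46 in LF_HF, and 4.23 and 4.69 in BD_HF. All 6 other arrays lay above both LF_LF arrays. Its difference in VAD_VAD minus LF_LF was 1.44 (SE 0.42, limma adjusted p = 0.253), with 1.42 on the second probe. Tm7sf2, a sterol C14 reductase, was at 5.23 and 5.03 in LF_LF, 6.62 and 6.10 in VAD_VAD, 5.99 and 6.29 in LF_HF, and 5.95 and 6.49 in BD_HF. LF_LF did not overlap with any other group. Its differences from LF_LF were 1.23, 1.01 and 1.09 in VAD_VAD, LF_HF and BD_HF (SE 0.36 each), with limma adjusted p of 0.254, 0.217 and 0.237, and that of LF_HF was 1.17 without its sample 1 (adjusted p = 0.104).

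Nsdhl, the sterol C4 decarboxylase, was at 1.27 and 0.64 in LF_LF, 2.18 and 2.20 in LF_HF, 1.06 and 2.10 in BD_HF, and 1.64 and 1.85 in VAD_VAD. The LF_HF arrays lay together above LF_LF, and the difference was 1.24 (SE 0.43, limma adjusted p = 0.212), the smallest adjusted p of an enzyme in that comparison, and 1.25 without sample 1 of LF_HF. Its other 3 probes gave 0.27, 1.51 and 1.17. Cyp51, the lanosterol demethylase, was at 0.71 and -0.21 in LF_LF, 1.41 and 1.52 in LF_HF, 0.63 and 0.92 in BD_HF, and 0.49 and 1.40 in VAD_VAD. It was lower in BD_HF than in LF_HF on both arrays, and that difference was -0.69 (SE 0.45, limma adjusted p = 0.787), and -0.74 without sample 1 of LF_HF. Fdft1, squalene synthase, was at 2.45 and 2.14 in LF_LF, 2.66 and 3.60 in VAD_VAD, 3.43 and 3.03 in LF_HF, and 2.85 and 3.82 in BD_HF. All 6 other arrays lay above LF_LF on this probe, and the difference of BD_HF from LF_LF was 1.04 (SE 0.47, limma adjusted p = 0.419), where its second probe gave -0.25.

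Lss, lanosterol synthase, and Sc4mol had the largest enzyme differences in LF_HF minus LF_LF over all arrays, 1.27 and 1.36 (SE 0.49 and 0.57), with limma adjusted p of 0.253 and 0.293. Both were lower on sample 2 of LF_HF than on sample 1, and this order depended on sample 1. Without it Sc4mol differed by 0.89, and Cyp51 and Nsdhl by 1.27 and 1.25. The other 2 probes of Lss gave 1.18 and 1.51. Smaller differences were measured at the last steps of the pathway. Ebp, Sc5d and Dhcr7, which shift, add and reduce ring double bonds, differed from LF_LF by 0.20, -0.22 and 0.17 in VAD_VAD and by -0.07, -0.31 and 0.33 in LF_HF. The SEs of these 6 differences were 0.41 to 0.43, and none passed the test.

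**Figure D2:**
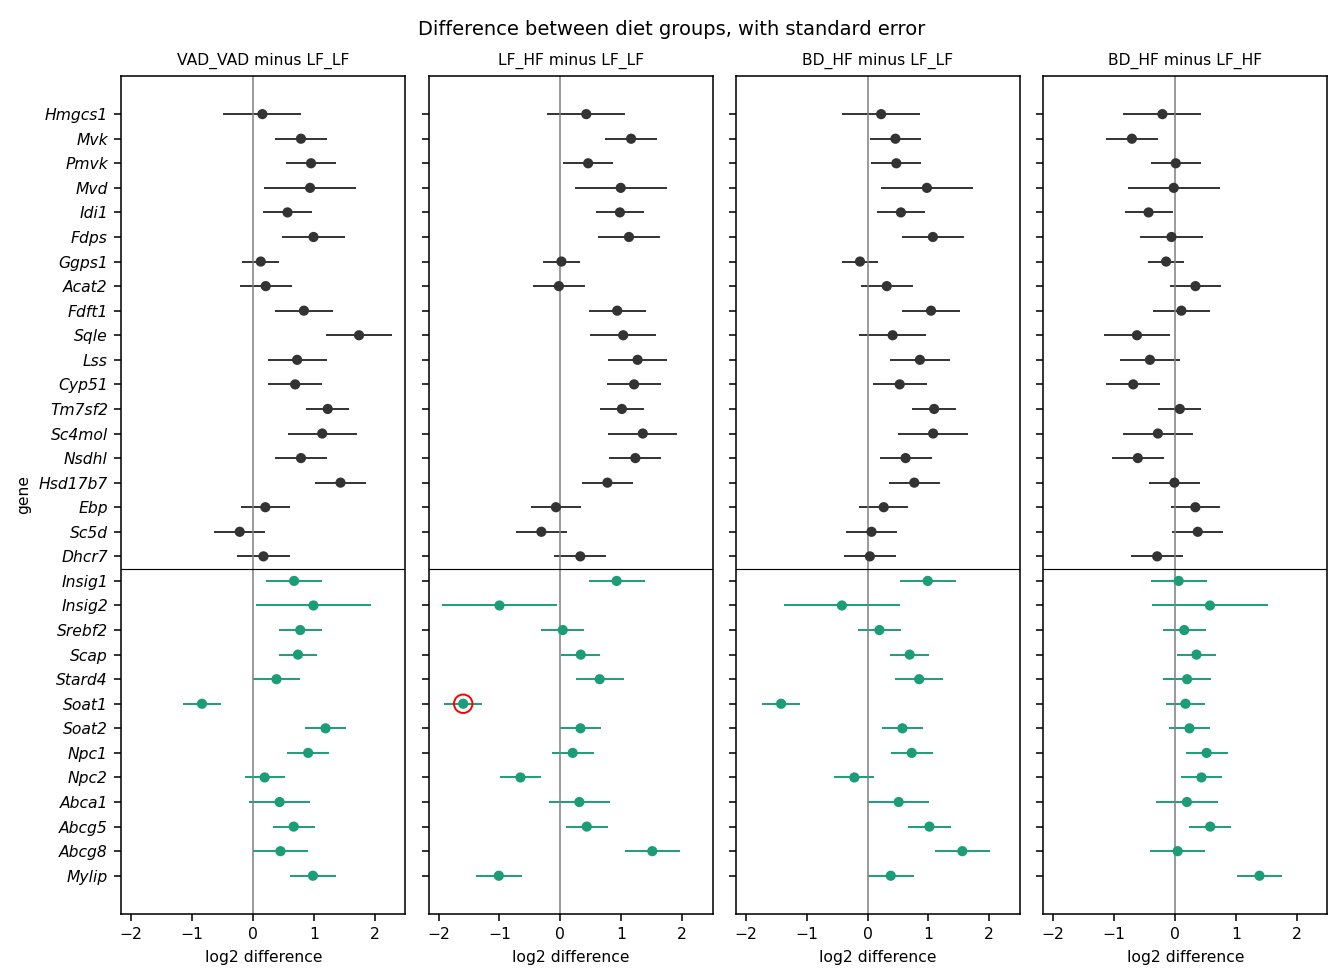
Log2 difference (horizontal axis) of each gene (vertical axis) in 4 comparisons of diet groups with 2 arrays each; points are limma estimates, bars are 1 SE, enzymes are dark and the other members green, and a red ring marks an adjusted p under 0.05. Most enzymes sit to the right of 0 in the 3 comparisons with LF_LF, Ggps1, Acat2, Ebp, Sc5d and Dhcr7 lie near 0 in most, and Soat1 in LF_HF minus LF_LF (-1.60) is the ringed point.

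Among the 4 sensing genes, all were higher in the mean of VAD_VAD than of LF_LF, by 0.68 (Insig1) to 1.00 (Insig2), and 0 passed the test in limma, 0 of them also with an unadjusted p under 0.05. Insig1, itself a target of the pathway it restrains, was at 1.69 and 1.45 in LF_LF, 2.73 and 2.27 in LF_HF, 2.48 and 2.64 in BD_HF, and 1.60 and 2.90 in VAD_VAD. Both High Fat groups lay above LF_LF, by 0.93 in LF_HF and 0.99 in BD_HF (SE 0.46, limma adjusted p = 0.368 and 0.440), the first 0.70 without sample 1 of LF_HF. The VAD_VAD arrays lay far apart, with sample 1 between the LF_LF arrays and sample 2 the highest of the 8. Insig2, the form whose transcript responds to feeding and insulin, was at 6.90 on sample 1 of VAD_VAD and at 2.72 to 4.62 on the other 7 arrays, with 3.82 on sample 2 of VAD_VAD. The difference of VAD_VAD from LF_LF, 1.00 (SE 0.95, limma adjusted p = 0.762), therefore rested on 1 array. Its second probe gave 1.02 in the same comparison.

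Srebf2 was at 3.34 and 2.86 in LF_LF, 4.12 and 3.63 in VAD_VAD, 2.99 and 3.29 in LF_HF, and 3.14 and 3.45 in BD_HF. The VAD_VAD arrays were the 2 highest, 0.78 above LF_LF (SE 0.35, limma adjusted p = 0.520), while LF_HF differed from LF_LF by 0.04, and by 0.19 without sample 1 of LF_HF. The 2 other kept probes of Srebf2 gave 0.63 and 0.76 in VAD_VAD minus LF_LF. Scap was lowest in LF_LF, at 4.86 on both arrays, and differed from it by 0.74 in VAD_VAD, 0.34 in LF_HF and 0.69 in BD_HF, with no call.

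Soat1, which esterifies cholesterol in macrophages and many other cells, fell in LF_HF. Its levels were -0.37 and -0.18 in LF_LF, -1.70 and -2.04 in LF_HF, -1.57 and -1.81 in BD_HF, and -1.23 and -0.98 in VAD_VAD. The LF_LF arrays were the 2 highest and did not overlap with any other group. The difference of LF_HF from LF_LF was -1.60 (SE 0.31, 3.02-fold lower, limma adjusted p = 0.0490), and it was -1.77 without sample 1 of LF_HF (adjusted p = 0.0136). BD_HF differed from LF_LF by -1.42 (adjusted p = 0.0932) and VAD_VAD by -0.84 (adjusted p = 0.407). The call stood near the threshold of 0.05. With the slide as a block the adjusted p was 0.0599, and with the mean of all its probes the difference was -0.57 (adjusted p = 0.593). It was lost without either array of LF_LF (adjusted p = 0.377 and 0.422), of BD_HF (0.128 for each) or of VAD_VAD (0.0892 for each). The probe used lies at chr1:158359977-158360036 (mm9, minus strand), and the 2 others of the gene gave -0.19 and 0.06. Macrophage markers differed between the same groups. Of 10, 8 were lower and 2 higher in the mean of LF_HF than of LF_LF, and 4 fell, against 1.88% of all genes, namely Cd68, Lyz2, Itgax and Trem2 (log2 differences -1.96, -2.43, -3.33 and -3.71), with a list median of -1.54 (-1.71 without sample 1 of LF_HF) and summed levels of 62.0 to 70.1 in LF_HF against 168 to 185 in LF_LF, and all 10 were well above background. Without sample 1 of LF_HF all 4 were again called, at -1.91 (Cd68) to -4.28 (Itgax). Their part in the fall of Soat1 was not tested, and in whole liver fewer cells of a type and less RNA per cell cannot be told apart.

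Soat2, the esterifying enzyme of hepatocytes and intestine, had its lowest array in LF_LF. It was at 0.54 and 0.23 in LF_LF, 1.60 and 1.56 in VAD_VAD, 0.55 and 0.89 in LF_HF, and 0.72 and 1.21 in BD_HF. The VAD_VAD arrays were the highest of the 8, 1.19 above LF_LF (SE 0.33, 2.29-fold, limma adjusted p = 0.236). Npc1 and Npc2, which release cholesterol from lysosomes, differed by 0.91 and 0.19 in VAD_VAD minus LF_LF and by 0.20 and -0.65 in LF_HF minus LF_LF. Stard4, a cytosolic sterol carrier, was at 3.23 and 3.21 in LF_LF and at 3.15 to 4.12 elsewhere, and differed from LF_LF by 0.85 in BD_HF (SE 0.39). None of these 4 genes passed the test in any diet comparison.

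The exporter pair was read gene by gene, and a difference between its genes in their response to diet was not tested. Both arrays of a group lay above LF_LF for Abcg8 in each High Fat group, and for Abcg5 in BD_HF and VAD_VAD. Abcg8 was at -1.31 and -0.50 in LF_LF, 0.74 and 0.48 in LF_HF, 0.39 and 0.91 in BD_HF, and -0.91 and 0.01 in VAD_VAD. The 4 High Fat arrays lay above the 4 others. The difference from LF_LF was 1.51 in LF_HF and 1.56 in BD_HF (SE 0.45, 2.86-fold and 2.95-fold), and neither passed the test (limma adjusted p = 0.158 and 0.185). Without sample 1 of LF_HF the first was 1.38 (adjusted p = 0.164), and the second probe of Abcg8 gave 1.37 and 1.42. Its partner Abcg5 was at 4.54 and 4.99 in LF_LF, 4.91 and 5.50 in LF_HF, 5.69 and 5.88 in BD_HF, and 5.35 and 5.53 in VAD_VAD. LF_HF overlapped LF_LF here, where the difference without sample 1 of LF_HF was 0.73. The differences over all arrays were 0.44 in LF_HF and 1.02 in BD_HF minus LF_LF (SE 0.35, limma adjusted p = 0.584 and 0.267). In VAD_VAD minus LF_LF the difference of Abcg5 was 0.67, also with no call. That of Abcg8 was 0.45, with 0.92 on its second probe, and was not called either.

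Abca1, which loads cholesterol onto nascent high density lipoprotein, was at 2.30 and 2.24 in LF_LF, 1.94 and 3.23 in LF_HF, 2.79 and 2.78 in BD_HF, and 3.19 and 2.23 in VAD_VAD. The arrays of LF_HF were at once the lowest and the highest, and no difference passed the test. LF_HF minus LF_LF was 0.31 (SE 0.50), and 0.96 without sample 1 of LF_HF. Mylip, the ubiquitin ligase that LXR uses to lower uptake of lipoprotein cholesterol, was at 0.37 and 0.40 in LF_LF, -0.16 and -1.09 in LF_HF, 0.75 and 0.78 in BD_HF, and 1.49 and 1.26 in VAD_VAD. The 4 groups did not overlap, with LF_HF lowest and VAD_VAD highest. Its difference in BD_HF minus LF_HF was 1.39 (SE 0.38) with a limma adjusted p of 0.787, and it was the 1 member of that comparison with an unadjusted p under 0.05. It was 1.86 without sample 1 of LF_HF. In LF_HF minus LF_LF it was -1.01 (adjusted p = 0.241), and without sample 1 of LF_HF -1.47 (adjusted p = 0.0183), but the second probe of Mylip gave 0.71 in that comparison and 0.01 in BD_HF minus LF_HF.

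**Figure D3:**
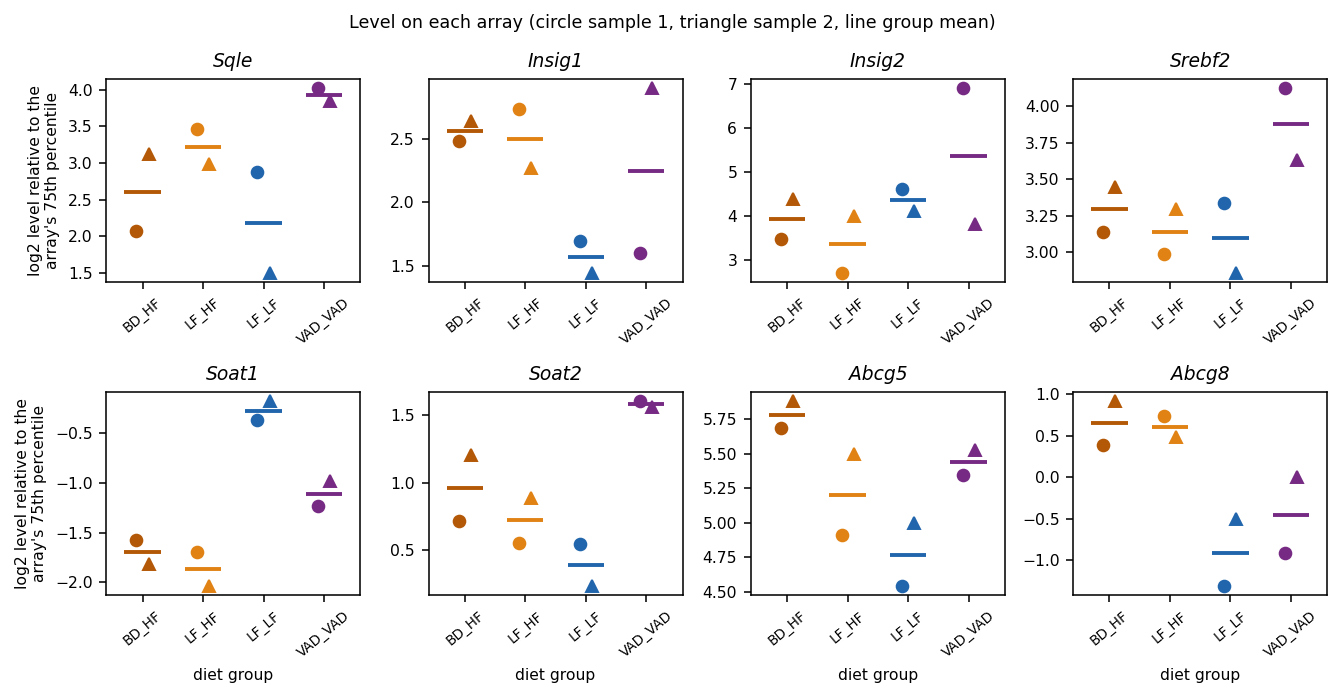
Log2 level relative to the 75th percentile of the array (vertical axis, a separate scale for each gene) of 8 members in the 4 diet groups; circles are sample 1, triangles sample 2 and lines the mean of the 2 arrays. The LF_LF arrays are the highest for Soat1, the VAD_VAD arrays for Sqle, Srebf2 and Soat2 and the 4 High Fat arrays for Abcg8, and 1 array of VAD_VAD stands alone for Insig2 at 6.90.

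The synthesis enzymes were then set beside the other 13 members. The sensing and handling genes had medians of 0.68 in VAD_VAD minus LF_LF, 0.31 in LF_HF minus LF_LF and 0.57 in BD_HF minus LF_LF, the second 0.50 without sample 1 of LF_HF. In the same order 7, 5 and 9 of 13 genes lay wholly above LF_LF, against 32.5%, 20.9% and 34.2% of all genes, and 1, 4 and 1 lay wholly below, against 25.5%, 21.3% and 25.9%. In BD_HF minus LF_HF all 13 were positive with a median of 0.24, where 61.8% of all genes were positive, while 13 of 19 enzymes were negative, but with quantile scaling 8 of the 13 were positive, with a median of 0.10, and without sample 1 of LF_HF 10 were, with a median of 0.17. Also positive over all arrays were 11 of 11 genes of intracellular sterol transport, 8 of 8 of lipoprotein cholesterol and 10 of 10 hepatocyte markers. Without sample 1 of LF_HF 6, 1 and 1 of these were. Over all arrays fatty acid synthesis had 10 of 11 positive and precursor cleavage and degradation 9 of 10. LXR and oxysterol metabolism had 8 of 10, and the isoprenoid branches 5 of 9. Without sample 1 of LF_HF these counts were 10, 3, 4 and 2 in the same order. The difference between the enzyme median and the median of the other members within an array does not depend on how arrays are scaled to each other by a constant. It was 0.86 and 0.16 in LF_HF, 0.10 and -0.51 in LF_LF, -0.55 and 0.15 in BD_HF, and -0.36 and 0.05 in VAD_VAD (samples 1 and 2). Both LF_HF arrays lay highest by this measure, but only sample 1, the array that stood apart, lay clear of the other groups. Sample 2 of LF_HF at 0.16 was close to sample 2 of BD_HF at 0.15. Scaling by a constant leaves differences in the spread of signals. The median signal was 184 and the 75th percentile 496 on sample 1 of LF_HF. On the other arrays they were 17.3 to 30.8 and 195 to 296. The part of this in the measure was not tested.

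**Figure D4:**
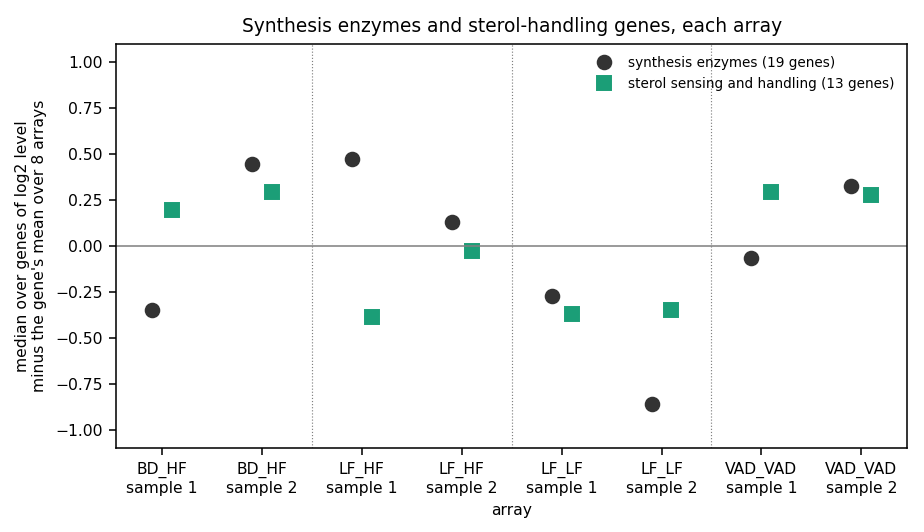
Median over genes of the log2 level minus the gene's mean over the 8 arrays (vertical axis) on each array (horizontal axis), for the 19 enzymes (circles) and the 13 sensing and handling genes (squares). The arrays of a group lie farther apart for the enzymes than for the other genes in BD_HF (-0.35 and 0.45), LF_LF and VAD_VAD, and about as far apart for both in LF_HF (0.47 and 0.13, against -0.39 and -0.02).

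Much of the variation of the enzymes lay between the arrays of a group. In BD_HF all 19 enzymes were higher on sample 2 than on sample 1, with a median difference of 0.94, where 58.7% of all genes were. In LF_LF 18 of the 19 were higher on sample 1, with a median of -0.60 for sample 2 minus sample 1, where 46.5% of all genes were higher on sample 2. In VAD_VAD 14 enzymes were higher on sample 2, with a median of 0.47, and in LF_HF 8 were, with a median of -0.32. Sample 2 of LF_LF was the lowest of the 8 arrays for 14 of 19 enzymes, from Hmgcs1 to Hsd17b7, and for 4 of the 13 other members, with the share over all genes not counted. The SD between arrays of a group, pooled over groups, was 0.39 for the enzyme median and 0.13 for the median of the other members.

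The sample number is also the slide, since each slide held 1 array of every group, per the file headers. The order of the samples was not the same in all groups: the enzymes were higher on slide 2 in BD_HF and VAD_VAD and lower on it in LF_LF. In a fit with group and slide, limma called 0 members for sample 2 minus sample 1, against 0% of all genes, and 1 member had an unadjusted p under 0.05, against 9.23% of all genes. Within slides the enzyme median of VAD_VAD minus LF_LF was 0.21 on slide 1 and 1.21 on slide 2, that of LF_HF minus LF_LF 0.70 and 1.04, that of BD_HF minus LF_LF -0.13 and 1.28, and that of BD_HF minus LF_HF -0.78 and 0.20. The last 2 had opposite signs on the slides. Without sample 1 of BD_HF the enzyme median of BD_HF minus LF_HF was 0.35, and without sample 2 of BD_HF it was -0.73. That of BD_HF minus LF_LF was 0.93 and 0.10 in the same order. For the other 13 members the same 4 medians were 0.78 and 0.53, 0.01 and 0.50, 0.48 and 0.68, and 0.41 and 0.38.

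Genes around the pathway were read from lists of neighbouring functions. Of 10 genes of precursor cleavage and sterol-regulated degradation, 11 of intracellular sterol transport, 8 of lipoprotein cholesterol and 9 measured of 10 in the isoprenoid branches, 0 passed the limma test in any of the 4 diet comparisons. Summed over the 4 comparisons, 2, 7, 5 and 1 of their unadjusted p were under 0.05, in the order of the lists, where 5.39% to 16.6% of all genes had one in a comparison. Of 10 genes of LXR and oxysterol metabolism, 1 rose in LF_HF minus LF_LF, against 0.620% of all genes: Cyp7b1, the oxysterol 7-alpha-hydroxylase of the alternative bile acid pathway. It was at 4.06 and 4.25 in LF_LF, 6.11 and 7.39 in LF_HF, 6.19 and 5.87 in BD_HF, and 4.46 and 5.44 in VAD_VAD. The High Fat arrays were the 4 highest, and the difference of LF_HF from LF_LF was 2.60 (SE 0.51, limma adjusted p = 0.0494) and 3.23 without sample 1 of LF_HF (adjusted p = 0.00865). Of 11 measured genes of fatty acid synthesis, which the related factor from Srebf1 controls, 1 rose in LF_HF minus LF_LF and in BD_HF minus LF_LF, against 0.620% and 0.458% of all genes: Thrsp, a lipogenic nuclear protein. It was at 2.63 and 2.89 in LF_LF, 5.96 and 6.48 in LF_HF, 6.11 and 7.18 in BD_HF, and 5.30 and 6.07 in VAD_VAD. All 6 other arrays lay above LF_LF, by 3.46 in LF_HF and 3.89 in BD_HF (SE 0.47, limma adjusted p = 0.0179 and 0.0155), and by 3.72 in LF_HF without its sample 1. In VAD_VAD minus LF_LF the difference of Thrsp was 2.93, the largest of its list, and it was not called. The smallest limma adjusted p of that list there was 0.0509. Both genes lost their call in LF_HF minus LF_LF under some alternatives, with 8 of 16 keeping it for Cyp7b1 and 13 of 16 for Thrsp. That list had medians of 0.91, 0.09 and 0.68 in VAD_VAD, LF_HF and BD_HF minus LF_LF, beside 0.79, 0.98 and 0.53 for the synthesis enzymes. The value for LF_HF was 0.23 for that list and 0.74 for the enzymes without sample 1 of LF_HF.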

How the data were processed

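Agilent 1-colour arrays of 8 livers were read from the scanner files. The deposited values are probe intensity, the processed signal that Feature Extraction 10.7.3.1 gives after background subtraction, per the file headers; the submitters' processing notes also name limma, without a role. Outlier spots and control spots were left out, spots of a probe were averaged, and log2 signal minus the 75th percentile of the array was taken. Probes were kept where both arrays of some group were well above background (26224 of 41174), and the brightest probe stood for a gene, which gave 17267 genes. Agreement of this choice with the other probes of a gene was checked: for 20 members with several kept probes, all had the same sign in 18 for VAD_VAD minus LF_LF, 15 for LF_HF minus LF_LF, 12 for BD_HF minus LF_HF and 15 for BD_HF minus LF_LF. Signals of the deposited series table differed from the scanner values by at most 0.497%.

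One limma 3.58.1 fit in R 4.3.3 used all 8 arrays, with 4 group means and, as a separate test, the sample number, and p-values were adjusted over all genes (Benjamini-Hochberg, threshold 0.05). It was tested on simulated data. On LF_HF sample 1, 945 of the genes tested had no value after outlier spots were removed (0 to 149 on the others). The sample number is the slide, per the file headers, and arrays with the same number deviated from their group means with correlations of 0.0987 to 0.302 over 16169 genes, so that 1 of 6 pairs of groups was under 0.1; the slide was kept as an alternative.

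Values by array were given for members called in any test, for the 2 enzymes and the 2 other members with the smallest p in each diet comparison, and for Sqle, Hmgcs1, Insig1, Insig2, Srebf2, Abca1, Abcg5 and Abcg8; pathway genes are named where called. Further genes and probes named with values were chosen after their values were seen. The members and lists were chosen with earlier results of these data known. Alternatives were normexp background correction (offset 50), quantile scaling, no filter and a filter on all 8 arrays, trended robust variances, the slide as a block, the mean of all probes, the series table and each array left out. The same alternatives were run for the called pathway genes and macrophage markers, and list medians were taken without LF_HF sample 1, choices made after seeing the data. Probe positions are mm9, per the file headers, and promoters are RefSeq's on GRCm38.p6, with no conversion between builds. Python 3.11.15, pandas 2.3.3 and matplotlib 3.10.9 were used for the rest.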

Additional observations from a re-analysis of the deposited data

How the results depend on the processing

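Of the 1088 values of named members under an alternative, 1068 kept their side of the threshold, 10 lost a call and 10 gained one. Only Soat1 in LF_HF minus LF_LF had a call to lose, so that the 10 lost calls were its own. It was called in 7 of 17 settings, the analysis reported included. A reversal could be counted only for that call, and 0 were. Signs of uncalled values were not part of this count, and that of Hmgcs1 in LF_HF minus LF_LF turned from 0.43 to -0.14 without sample 1 of LF_HF. The count of members called in LF_HF minus LF_LF was 1 in the analysis reported, where 2.50% of all genes were called. It was 5 with normexp correction (15.4% of all genes) and 2 with trended robust variances (4.7%). It was 0 with quantile scaling (5.04%), with no filter on dim probes (0.118%) and with the mean of all kept probes (1.66%). With the slide (the sample number) as a replicate block it was also 0 (1.93%), and the block changed no other count of members called. In BD_HF minus LF_LF the count was 1 with normexp (4.06% of all genes) and 2 with trended variances (3.52%). In the F test it was 1 (4.18%) and 3 (4.44%). Quantile scaling brought the median of the sensing and handling genes to 0.43 in VAD_VAD minus LF_LF and to 0.10 in BD_HF minus LF_HF. It also brought the median of all genes in LF_HF minus LF_LF from -0.02 to -0.20, with 37.6% positive against 48.7%, and no filter brought it to 0.49, with 66.1% positive.

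Each array was also left out in turn, which left 1 array in a group. Members called in those fits are not counted here, since the share of all genes called also changed with the array left out. The enzyme median ran from 0.37 to 1.11 in VAD_VAD minus LF_LF, 0.62 to 1.13 in LF_HF minus LF_LF, -0.73 to 0.35 in BD_HF minus LF_HF and 0.10 to 0.94 in BD_HF minus LF_LF. The median of the sensing and handling genes ran from 0.68 to 0.76, -0.013 to 0.50, 0.17 to 0.62 and 0.48 to 0.73 in the same order. An arm left with 1 array was taken to vary like the other groups. The cause of these changes was not tested. All members were well above background on all arrays.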
